A study of Mus musculus with 18 samples.

Results

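The comparison of fully trained (expert) with untrained (naive) mice covered 9427 of the 23924 genes read (39.4%), those with at least 5 FPKM (fragments for each kilobase of transcript, as a rate per mapped fragments of the library) in at least 6 of the 12 libraries of both groups. The filter did not use which group a library belonged to. A gene can still pass through the libraries of 1 group alone, as Syde1 did (below). Of the genes kept, 1242 had a 6th highest value between 5 and 6 FPKM, and a further 1465 genes were left out with a 6th highest value between 4 and 5 FPKM. All 12 libraries were labelled as astrocytes of the motor cortex from C57BL/6 mice. The series describes its wild-type mice as restricted in water and trained to push a lever past a threshold after a cue, with a drop of water as reward. It does not say whether naive mice were restricted in water too, so whether the groups also differ in that is not known. Naive mice had no training and were 12 to 21 weeks old, expert mice were fully trained and 13 to 15 weeks old, and each group held 2 labelled female and 4 labelled male samples. A group of 6 novice libraries, from mice of 11 to 13 weeks trained for 3 days, served as a reference for levels. They entered the test only in an alternative fit of all 18 libraries. Whether every library stands for its own animal is not stated in the labels, and p-values here describe spread from library to library. The labels used here do not say how the cells were isolated.

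Astrocytes take up the glutamate and potassium that neurons release, supply neurons with lactate, and secrete factors that act on synapses. Their endfeet cover brain capillaries, whose endothelial cells form the blood-brain barrier through tight junctions and dedicated transporters, with pericytes and a basement membrane lying between the cell types. Immediate early genes are transcription factors and signalling regulators that are switched on within minutes of a stimulus, in neurons during activity and in many cells, astrocytes and endothelium among them, on stress or dissociation.

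The libraries carried transcripts of astrocytes and of other cells, and without a library of whole tissue among the samples enrichment of astrocytes could not be measured. All 26 astrocyte identity genes passed the filter, and their mean log2(FPKM + 1) was 6.06 to 7.80 in naive and 6.51 to 8.29 in expert libraries. Of 24 endothelial markers 23 passed, with none at 0 in any library, as did 24 of 26 neuron markers. Of the other markers, 12 of 22 of pericytes, smooth muscle and fibroblasts passed, 9 of 20 of oligodendrocytes and 6 of 20 of microglia and macrophages. Means of the neuron markers over the 12 libraries had a median of 12.5 FPKM and reached 276 FPKM for Camk2a. Among the astrocyte genes, Slc1a2 had a mean of 1481 FPKM, Gja1 of 245 FPKM and Aldh1l1 of 40.6 FPKM. A set of 1535 genes with little expected expression in brain (olfactory, vomeronasal and taste receptors and defensins) had a mean of 1.68 to 6.81 FPKM in naive and 0.305 to 6.03 FPKM in expert, with the lowest mean in expert 3. Of the set, 29 genes passed the filter of 5 FPKM, so a tested gene near that filter can lie at this level. The mean of the set, called the silent-gene mean here, was at least 4 FPKM in 2 libraries of each group. Principal component 1 accounted for 48.4% of the variance, spanned -42.5 to 76.6 in naive and -73.7 to 58.0 in expert, and placed these 4 libraries highest. Genes at exactly 0 numbered 2257 to 5430 per library, and the short neuronal RNA Bc1 held 6.01% to 54.8% of the summed FPKM.

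No gene passed the adjusted threshold of 0.05 (limma on log2(FPKM + 1), Benjamini-Hochberg over 9427 genes, no adjusted p below 0.999), a share of 0%. At an unadjusted p under 0.05 there were 246 genes (2.61%) where 471.35 are expected by chance, 182 higher in expert (1.93% of those tested) and 64 lower (0.679%). An exact two-sided rank sum test gave 268 genes (2.84%) at an unadjusted p under 0.05 and none after adjustment. Leaving out expert 6 lowered the count at p under 0.05 to 137, and leaving out expert 3 and expert 6 together to 124, of which 39 were higher and 85 lower. Over all genes the median log2 fold change was 0.03, the means of 5131 genes (54.4%) were higher in expert, and the median standard error was 0.29. In simulated data with the same means and spread, the test recovered 37 of 100 genes changed by 2-fold and 85 of 100 changed by 4-fold, with 8 false calls. Every gene named from here on had an adjusted p of at least 0.999, so what follows gives levels and ranks. Fold changes, standard errors and the genes counted at an unadjusted p under 0.05, also with libraries left out, are those of limma. A p-value printed for a single gene is the unadjusted value of the exact two-sided rank sum test, which cannot go below 0.0022.

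**Figure D1:**
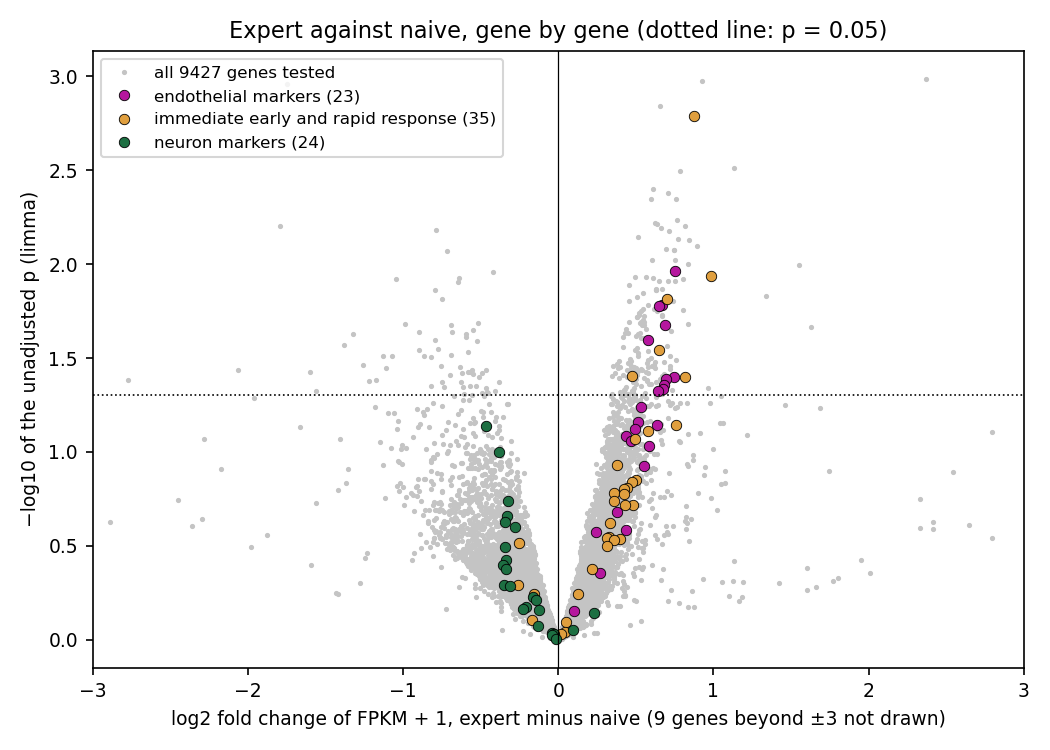
Log2 fold change of FPKM + 1 (expert minus naive, x axis) against the unadjusted p on a -log10 scale (y axis) for the 9427 genes tested, with 9 genes beyond 3 in either direction not drawn. The 23 endothelial markers all lie right of 0 and 10 of them above the dotted line at 0.05, 30 of 35 immediate early genes lie right of 0, and 22 of 24 neuron markers lie left of it.

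Genes of the brain vasculature made up the group that stood highest in expert libraries. The means of all 23 tested endothelial markers were higher, with a median log2 fold change of 0.58 against 0.03 over all genes, and 10 of the 23 had an unadjusted p under 0.05 on the higher side, where 1.93% of all genes did. By the rank sum test 8 of the 23 did, where 212 of all 9427 genes did on the higher side. Ocln, which encodes a tight junction protein, ranged from 10.4 to 27.8 FPKM in expert (median 15.6) and from 5.57 to 13.9 FPKM in naive (median 9.21). The groups overlapped, with 4 of 6 expert libraries above all naive ones, and the log2 fold change was 0.75 (SE 0.26, exact rank sum p = 0.015). Cdh5, the cadherin of endothelial junctions, ranged from 17.5 to 44.7 FPKM in expert (median 28.1) and from 16.0 to 24.2 FPKM in naive (median 17.2). Here 5 of 6 expert libraries lay above every naive one (log2 fold change 0.67, SE 0.24).

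The receptors of the vascular growth factors were among these genes. Tek, the angiopoietin receptor, ranged from 13.1 to 31.7 FPKM in expert (median 21.9) and 9.55 to 15.4 FPKM in naive (median 13.9), with 5 of 6 expert libraries above all naive ones (log2 fold change 0.65, SE 0.24, exact rank sum p = 0.026). Ptprb, a phosphatase that acts on Tek, had expert values of 24.7 to 65.9 FPKM (median 35.9) and naive values of 20.6 to 27.7 FPKM (median 24.4). Its expert SD of 16.9 FPKM was larger than its naive SD of 2.31 FPKM. Kdr, the main signalling receptor for VEGF, had medians of 17.4 FPKM in expert and 11.7 FPKM in naive (log2 fold change 0.58, SE 0.23). Flt1, a VEGF receptor that also acts as a decoy, lay at 55.9 to 136 FPKM in expert (median 69.7) and 43.3 to 69.7 FPKM in naive (median 51.9), and 2 of 6 expert libraries exceeded all naive ones. Of the 15 tested genes of VEGF and angiopoietin signalling 11 stood higher, where 54.4% of all genes did, with a median of 0.24. Tek, Kdr, Nrp2 and Flt1 were the 4 higher at an unadjusted p under 0.05 in limma, where 1.93% of all genes were. Nrp2, a co-receptor, did not reach it in the exact rank sum test (p = 0.093). The median was 0.09 without expert 3 and expert 6, with 9 of 15 higher. Vegfa, the ligand of Kdr and Flt1, which astrocytes themselves express, had medians of 56.6 FPKM in expert and 50.7 FPKM in naive (log2 fold change 0.24, SE 0.34), and -0.05 without expert 3 and expert 6. Epas1, a hypoxia-inducible factor abundant in endothelium, had medians of 143 and 111 FPKM (0.54, SE 0.33).

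Genes of blood-brain barrier transport, a list made up mostly of transporters, followed the endothelial markers, with which it shares Abcb1a and Slco1a4. All 22 tested had higher means (median 0.49), where 54.4% of all genes did, and 6 had an unadjusted p under 0.05, where 1.93% did. Slc7a1, a carrier of cationic amino acids, stood at 10.3 to 15.4 FPKM in expert (median 11.6) and 6.84 to 10.3 FPKM in naive (median 8.61). Only the lowest expert library overlapped with the naive range, and the log2 fold change was 0.49 (SE 0.17, exact rank sum p = 0.0043). Slc16a1, the monocarboxylate transporter that carries lactate and ketone bodies, ranged from 13.5 to 29.96 FPKM in expert (median 18.7) and from 9.15 to 16.4 FPKM in naive (median 11.6), and 4 expert libraries lay above all naive ones (0.68, SE 0.25). The taurine transporter Slc6a6 had 5 of 6 expert libraries above all naive ones, with medians of 49.5 and 33.99 FPKM. So did Spock2, an extracellular matrix proteoglycan and not a transporter, with medians of 136 and 92.5 FPKM and the highest log2 fold change of the list (0.72). Abcb1a, the drug efflux pump, had medians of 43.5 and 27.7 FPKM, and the iron exporter Slc40a1 of 11.1 and 7.41 FPKM. Slc2a1, the glucose transporter of the barrier, overlapped more widely, at 58.9 to 200 FPKM in expert (median 103) and 55.5 to 113 FPKM in naive (median 70.9), with a log2 fold change of 0.55 (SE 0.35).

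The barrier is maintained by WNT signals that reach endothelial receptors. Of 22 tested genes of WNT and beta-catenin signalling 19 stood higher, with a median of 0.19, where 54.4% of all genes did. On the higher side 4 had an unadjusted p under 0.05 in limma, where 1.93% of all genes did, and 3 by the rank sum test. The median was 0.10 without expert 3 and expert 6, with 14 of 22 higher, and with the endothelial marker mean as a covariate it was 0.02 with 12 of 22. Tcf7, a transcription factor that binds beta-catenin, ranged from 5.34 to 9.67 FPKM in expert (median 7.80) and from 3.41 to 7.01 FPKM in naive (median 4.76), and 4 expert libraries lay above all naive ones (log2 fold change 0.55, SE 0.20, exact rank sum p = 0.015). The receptor Fzd6 and the co-receptor Lrp5 stood at 0.55 (SE 0.21) and 0.56 (SE 0.22), and the pathway inhibitor Apcdd1 at 0.70 (SE 0.31). Lef1, a relative of Tcf7, stood at 0.49 (SE 0.24).

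Matrix and mural cell genes stood higher by smaller amounts. The 15 tested basement membrane genes all had higher means (median 0.40), where 54.4% of all genes did. In limma 1 of the 15 had an unadjusted p under 0.05 on the higher side, where 1.93% of all genes did. By the rank sum test 2 of the 15 did. The gene under 0.05 in limma was Itga1, the collagen-binding integrin subunit, at 0.49 (SE 0.21, exact rank sum p = 0.041). Fibronectin (Fn1) ranged from 33.3 to 90.9 FPKM in expert (median 48.1) and from 30.6 to 40.3 FPKM in naive (median 35.0), and Col4a1, the type IV collagen chain, stood at 0.43 (SE 0.22). All 12 tested markers of pericytes, smooth muscle and fibroblasts also had higher means (median 0.39), and 0 of them had an unadjusted p under 0.05 (1 by the rank sum test). The pericyte gene Rgs5 had medians of 100 FPKM in expert and 73.1 FPKM in naive, the receptor Pdgfrb of 20.8 and 16.5 FPKM, and the smooth muscle myosin Myh11 of 8.24 and 5.15 FPKM.

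A pair of expert libraries stood apart in the vascular lists. Over the 23 endothelial markers, mean log2(FPKM + 1) was 3.89 to 4.37 in naive libraries and 3.95, 4.30, 4.44 and 4.60 in expert 4, 2, 1 and 5, and it was 5.10 in expert 3 and 5.36 in expert 6. Without expert 3 and expert 6, 20 of the 23 still had higher means, the median was 0.25 and 0 of the 10 genes kept a p under 0.05. For barrier transport 18 of 22 were higher with a median of 0.20, for the basement membrane 12 of 15 with 0.15, and for pericyte and related markers 9 of 12 with 0.20. Among the 4 naive and 4 expert libraries with a silent-gene mean under 4 FPKM the endothelial median was 0.79, and among the 2 and 2 libraries at or above it 0.15. In bulk libraries, more cells of a type and more RNA per cell cannot be told apart, so these values do not separate more endothelium in a sample from higher expression in it. In the novice libraries the mean of the endothelial markers was 3.48 to 4.50.

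**Figure D2:**
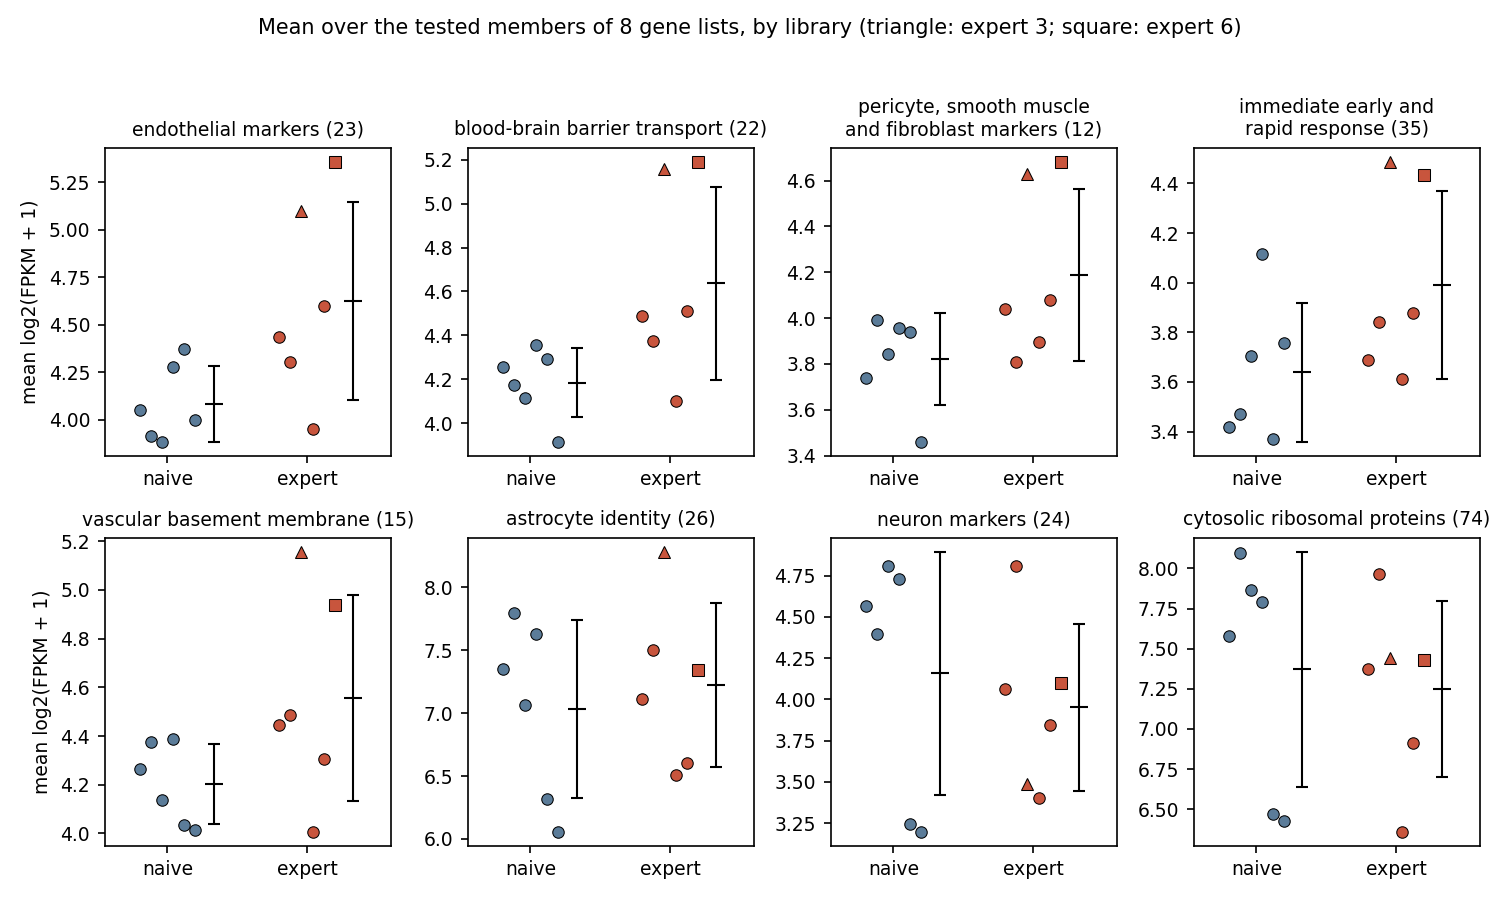
Mean log2(FPKM + 1) over the tested members of 8 gene lists (number of members in each title) in the 6 naive and 6 expert libraries, with the mean and SD of each group as a bar. In the endothelial panel expert 3 (triangle, 5.10) and expert 6 (square, 5.36) stand above the other expert libraries and the naive range of 3.89 to 4.37, and in the neuron panel naive 5 and 6, at 3.24 and 3.20, lie below the other naive libraries.

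Genes of the immediate early and rapid response formed another group that stood higher in expert. Of 35 tested, 30 had higher means, where 54.4% of all genes did, and the median was 0.38. Sik1, Dusp1, Klf6, Btg2, Per1 and Klf2 had an unadjusted p under 0.05 in limma on the higher side, where 1.93% of all genes did. In the exact rank sum test Btg2 and Klf2 stood at p = 0.065. Sik1, a kinase that restrains CREB-dependent transcription, ranged from 7.53 to 16.1 FPKM in expert (median 10.9) and from 3.57 to 8.13 FPKM in naive (median 6.04). Of the expert libraries 5 lay above all naive ones (log2 fold change 0.87, SE 0.22, exact rank sum p = 0.0043), and without expert 3 and expert 6 Sik1 was the 1 gene of the 6 to keep a limma p under 0.05, at a log2 fold change of 0.66.

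Dusp1, a phosphatase that switches off MAP kinases, ranged from 17.9 to 51.5 FPKM in expert (median 22.9) and from 8.47 to 27.5 FPKM in naive (median 12.4). The highest expert values were 51.5 in expert 3 and 44.7 in expert 6, and naive 4, at 27.5, lay above the 4 other expert libraries (0.99, SE 0.34, exact rank sum p = 0.026). Klf6, a zinc-finger transcription factor, had medians of 15.5 FPKM in expert and 9.15 FPKM in naive (0.70, SE 0.25), and Btg2, an antiproliferative gene, of 14.4 and 9.92 FPKM (0.65, SE 0.27). Klf2, which blood flow induces in endothelium, had medians of 34.6 and 20.8 FPKM (0.82, SE 0.36). The period gene Per1, which is both a clock component and a rapid response gene, stood at 0.48 (SE 0.21).

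The classical activity markers overlapped between the groups. Fos ranged from 21.8 to 62.6 FPKM in expert (median 29.9) and from 16.4 to 45.2 FPKM in naive (median 20.8), with a log2 fold change of 0.48 (SE 0.35). Jun had medians of 32.5 and 24.9 FPKM (0.58, SE 0.31). Arc, which in cortex is an activity gene of neurons, ranged from 5.69 to 27.6 FPKM in expert and from 2.61 to 42.9 FPKM in naive, at -0.17 (SE 0.61). The highest means of the list over its 35 genes belonged to expert 3 (4.49) and expert 6 (4.43), the same libraries that led the endothelial markers, and naive 4 followed with 4.11. Without expert 3 and expert 6, 22 of the 35 were higher and the median was 0.11, and with the endothelial marker mean as a covariate it was 0.04. The endothelial marker mean itself averaged 4.62 in expert and 4.08 in naive libraries, and as a covariate it also took the astrocyte identity median from 0.19 to -0.15. Whether vessel content had a part in the rapid response values was not tested.

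Several of these genes respond to cyclic AMP through the factor CREB, which binds the palindrome TGACGTCA (the cyclic AMP response element) or the core TGACG alone. Both were searched on both strands in the 250 bases before the annotated start of each gene, in RefSeq promoters of build GRCm38.p6. The palindrome lay in 439 of 27025 gene windows (1.62%), in 209 of the 7061 tested genes with a window (2.96%), in 2 of 27 rapid response genes with a window, Dusp1 and Btg2, and in 1 of 15 endothelial markers with a window, Flt1. The core, which every palindrome contains, lay in 17.9% of all windows, 27.0% of those of tested genes, 13 of 27 rapid response genes, 2 of 15 endothelial markers and 4 of 18 genes of barrier transport with a window, of which 0 held the palindrome. CAGGAAG, a form of the site of ETS factors, which act in endothelium, lay in 10.5% of all windows, 9.21% of those of tested genes, 4 of 15 endothelial markers, 2 of 27 rapid response genes and 0 of 18 genes of barrier transport. A match describes the letters and is not a measured binding site. The 3 windows with the palindrome, all on the minus strand, are shown 5′ to 3′ with each match to TGACG or the palindrome in that orientation in capitals: Dusp1 at chr17:26508473-26508722, Btg2 at chr1:134079156-134079405 and Flt1 at chr5:147726012-147726261.
Dusp1: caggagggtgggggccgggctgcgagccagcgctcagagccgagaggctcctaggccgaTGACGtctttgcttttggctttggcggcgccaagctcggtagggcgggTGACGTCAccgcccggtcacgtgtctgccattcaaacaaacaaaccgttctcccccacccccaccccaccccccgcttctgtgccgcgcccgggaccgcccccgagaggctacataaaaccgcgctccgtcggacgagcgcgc
Btg2: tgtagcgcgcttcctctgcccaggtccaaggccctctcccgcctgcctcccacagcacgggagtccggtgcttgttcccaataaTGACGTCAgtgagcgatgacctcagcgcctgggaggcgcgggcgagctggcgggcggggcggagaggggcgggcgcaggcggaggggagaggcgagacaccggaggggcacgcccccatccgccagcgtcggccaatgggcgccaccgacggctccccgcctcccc
Flt1: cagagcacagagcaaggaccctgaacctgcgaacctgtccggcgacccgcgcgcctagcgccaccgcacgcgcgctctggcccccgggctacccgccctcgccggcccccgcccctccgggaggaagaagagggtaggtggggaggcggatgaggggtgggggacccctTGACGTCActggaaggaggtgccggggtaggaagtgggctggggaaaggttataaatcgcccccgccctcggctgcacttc

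Related response lists shared members with this one. Of 18 tested cyclic AMP and CREB targets 16 stood higher (median 0.23), where 54.4% of all genes did. On the higher side 5 had an unadjusted p under 0.05 in limma, where 1.93% of all genes did. They were Dusp1, Sik1, Per1, the coactivator-binding protein Cited2 (0.69, SE 0.25) and the kinase anchor Akap12 (0.42, SE 0.19). Of 19 tested glucocorticoid responsive genes 13 stood higher (median 0.18), where 54.4% of all genes did. At an unadjusted p under 0.05, 4 were higher in limma, where 1.93% of all genes were. The rank sum test gave 6, where it gave 212 of all 9427 genes on the higher side. Without expert 3 the median of the cyclic AMP list was 0.11, and without expert 3 and expert 6 both medians were 0.04. Ddit4, an inhibitor of mTOR induced by glucocorticoids and hypoxia, ranged from 6.26 to 18.8 FPKM in expert (median 11.8) and from 0 to 8.21 FPKM in naive (median 5.37). All expert libraries except 1 lay above every naive one (log2 fold change 1.55, SE 0.52, exact rank sum p = 0.015). Sdpr, a caveolar protein, stood at 0.65 (SE 0.23).

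Gene by gene, complete separation was rare. In 6 genes (0.0636% of those tested) every expert library lay above every naive one. Foxq1, a forkhead transcription factor expressed in brain endothelium, ranged from 8.32 to 13.6 FPKM in expert (median 10.2) and from 5.05 to 7.26 FPKM in naive (median 6.35). Its log2 fold change was 0.66 (SE 0.17, exact rank sum p = 0.0022), and the novice libraries lay at 4.22 to 8.86 FPKM. Plat, the tissue plasminogen activator, ranged from 11.0 to 21.1 FPKM in expert (median 11.4) and from 5.18 to 10.9 FPKM in naive (median 7.63), so that the groups met closely (0.71, SE 0.22). Polk, a DNA polymerase that copies past lesions, ranged from 11.1 to 16.6 FPKM in expert (median 13.3) and from 6.69 to 10.8 FPKM in naive (median 8.69). Its log2 fold change was 0.59 (SE 0.18), and 0.48 without expert 3 and expert 6. Syde1, a GTPase-activating protein, had medians of 7.07 and 4.01 FPKM. Its naive values, 3.59 to 4.74 FPKM, all lay below the filter of 5 FPKM. Its expert values, 5.01 to 8.91 FPKM, all lay above it. Syde1 thus passed the filter through its expert values alone, so its separation lends no support. The splicing factor Prpf31 had medians of 6.60 and 5.13 FPKM, and Qser1 of 6.37 and 4.92 FPKM.

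Other genes of small p overlapped in 1 or more libraries. Dynlrb2, a dynein light chain of cilia, had the smallest p of the genes named in limma. Of the naive libraries 4 were at 0 and the others at 2.73 and 8.85 FPKM. In expert it ranged from 4.50 to 16.5 FPKM (log2 fold change 2.37, SE 0.58, exact rank sum p = 0.019). Its mean over the 12 libraries, 5.62 FPKM, was below the silent-gene mean of naive 5 (6.79 FPKM), naive 6 (6.81 FPKM) and expert 4 (6.03 FPKM). Novice libraries held 1.81 to 12.7 FPKM of Dynlrb2, and of the 5 tested markers of ependyma and cilia it was the 1 with a p under 0.05. Of these 5 markers 2 were higher and 3 lower in expert, with a median log2 fold change of -0.04. Srgn, the core of a proteoglycan stored in secretory granules of blood and endothelial cells, ranged from 17.9 to 41.0 FPKM in expert (median 28.3) and from 11.7 to 19.3 FPKM in naive (median 13.6), with 5 expert libraries above all naive ones (0.92, SE 0.22). Gkn3, which marks arterial endothelium in mouse brain, ranged from 4.77 to 20.6 FPKM in expert (median 8.33) and from 1.46 to 5.86 FPKM in naive (median 3.77), with the highest value in expert 6. Nostrin, which regulates endothelial nitric oxide synthase, had medians of 15.3 and 8.19 FPKM, and Ebf1, a transcription factor that brain mural cells express, of 7.66 and 3.83 FPKM. Ccng2, a cyclin linked to growth arrest, had medians of 7.07 and 3.47 FPKM, the interferon-induced GTPase Gbp3 of 14.7 and 7.81 FPKM, and Atp2a3, a calcium pump of the endoplasmic reticulum, of 7.12 and 4.53 FPKM.

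The same genes were refitted without the pair of expert libraries rich in endothelial transcripts. The 12 higher genes of smallest p, chosen on all libraries, all had a p under 0.05 without expert 3 and expert 6, at log2 fold changes such as 0.50 for Foxq1, 0.75 for Srgn and 2.27 for Dynlrb2. With the endothelial marker mean as a covariate, 7 of the 12 did (0.38 for Foxq1). All 12 had the same sign among libraries with a silent-gene mean under 4 FPKM and among those at or above it. These genes were chosen by their p in the same libraries, so keeping a small p or a sign is no independent support. Of all 182 higher genes at p under 0.05, 31 kept it without expert 3 and expert 6, and 17 with the endothelial covariate. No adjusted p fell below the threshold in either fit.

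**Figure D3:**
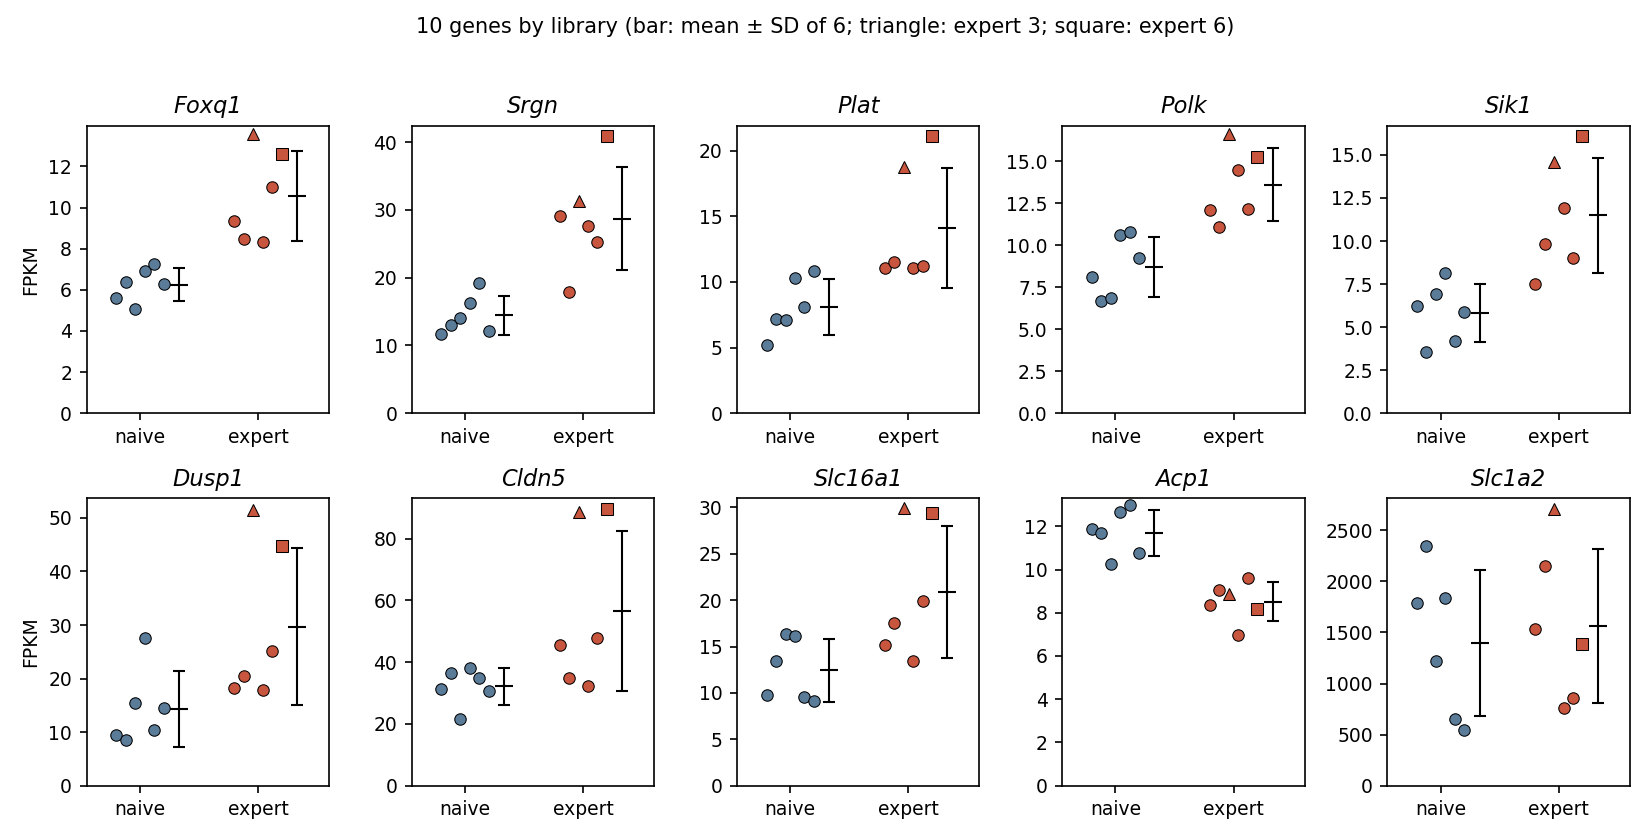
FPKM of 10 genes in the 6 naive and 6 expert libraries (y axis from 0), with the mean and SD of each group as a bar, a triangle for expert 3 and a square for expert 6. Foxq1, Plat and Polk show no overlap with expert above naive and Acp1 none with expert below, whereas Dusp1 and Cldn5 spread widely among expert libraries and Slc1a2 overlaps throughout.

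Genes lower in expert had mixed functions. Acp1, a small tyrosine phosphatase, was the 1 protein-coding gene with every expert library below every naive one, and with 2 small nucleolar RNAs made up the 3 genes of this kind (0.0318%). It ranged from 6.99 to 9.59 FPKM in expert (median 8.62) and from 10.2 to 13.0 FPKM in naive (median 11.8), with a log2 fold change of -0.42 (SE 0.14, exact rank sum p = 0.0022), the same without expert 3 and expert 6. The novice libraries lay at 8.96 to 12.2 FPKM. Dear1, a receptor gene named for endothelin and angiotensin, was listed at 0 in 2 expert libraries and reached 7.27 FPKM in the others, while naive libraries held 5.85 to 18.5 FPKM (-1.79, SE 0.56). Tmem134, a membrane protein, ranged from 1.07 to 10.4 FPKM in expert (median 7.74) and from 9.80 to 16.6 FPKM in naive (median 12.8), with 5 expert libraries below all naive ones.

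Several of the lower genes named encode enzymes. Nagk, which salvages N-acetylglucosamine, had medians of 5.90 FPKM in expert and 11.6 FPKM in naive (log2 fold change -0.79, SE 0.25, exact rank sum p = 0.041). Lcmt1, which methylates the phosphatase PP2A, had medians of 5.58 and 11.6 FPKM, and Pemt, which makes phosphatidylcholine from phosphatidylethanolamine, of 5.45 and 11.7 FPKM. Farsa, a subunit of the phenylalanine tRNA synthetase, had 5 of 6 expert libraries below all naive ones, with medians of 4.58 and 6.90 FPKM. So did Anapc11, a subunit of the anaphase-promoting complex, with medians of 4.01 and 5.97 FPKM, and Tbata, with 12.0 and 20.1 FPKM. Hsd17b13, a lipid droplet protein, stood at -0.98 (SE 0.38) and Cacna2d3, a subunit of neuronal calcium channels, at -0.64 (SE 0.22). Vgf, a neuropeptide precursor that neuronal activity induces, ranged from 1.73 to 7.39 FPKM in expert (median 4.40) and from 5.06 to 10.9 FPKM in naive (median 7.56). Without expert 3 and expert 6, 8 of the 12 lower genes of smallest p kept a p under 0.05 and all 12 kept their sign. They too were chosen on all libraries. Of all 64 lower genes at p under 0.05, 30 kept it in that fit.

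The genes that define astrocytes overlapped between the groups. Slc1a2, the main glutamate transporter, ranged from 759 to 2708 FPKM in expert (median 1457) and from 548 to 2341 FPKM in naive (median 1503), at a log2 fold change of 0.21 (SE 0.49, exact rank sum p = 0.70). Slc1a3, the other astrocytic glutamate transporter, had medians of 473 and 485 FPKM, the gap junction gene Gja1 of 245 and 215 FPKM, and the water channel Aqp4 of 62.0 and 62.7 FPKM. Gfap, the intermediate filament that marks reactive astrocytes, ranged from 11.8 to 35.4 FPKM in expert and from 9.09 to 35.3 FPKM in naive (0.10, SE 0.33), and Aldh1l1, a folate enzyme, had medians of 40.2 and 41.8 FPKM. Of the 26 identity genes 25 had higher means (median 0.19), where 54.4% of all genes did, and 0 had an unadjusted p under 0.05. The direction depended on single libraries of both groups. Expert 3 had the highest mean over the list among expert libraries, 8.29 against 6.51 to 7.50, and naive 6 the lowest among naive ones, 6.06 against 6.32 to 7.80. Without expert 3 the median was -0.04 with 9 of 26 higher, and without naive 6 it was 0.01 with 15 of 26. Leaving out expert 3 and expert 6 gave -0.13 with 5 of 26 higher.

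Functional lists of astrocytes held few genes of small p. Of 15 genes of glutamate uptake and recycling 11 stood higher (median 0.09), as did 10 of 11 for GABA (0.18), 16 of 18 for potassium, water and pH (0.18) and 17 of 24 for calcium signalling (0.09), with 0 of any of them at an unadjusted p under 0.05. Beside the counts of these and the following lists, 54.4% of all genes stood higher. An unadjusted limma p under 0.05 on the higher side was held by 1.93%. Without expert 3 and expert 6 the medians were -0.12 for glutamate (1 of 15 higher), -0.04 for GABA (4 of 11), -0.05 for potassium, water and pH (7 of 18) and -0.03 for calcium (8 of 24). Leaving out expert 3 alone brought GABA to 0.0005, potassium, water and pH to 0.005 and glutamate to -0.02, and leaving out naive 6 alone brought glutamate to -0.06 and calcium to -0.04. Among 14 secreted synaptogenic and trophic factors 11 stood higher (median 0.17, and -0.05 without expert 3 and expert 6). Tgfb2, a growth factor that acts on synapses and vessels, ranged from 9.12 to 22.5 FPKM in expert (median 13.3) and from 7.65 to 12.7 FPKM in naive (median 8.96), with 4 expert libraries above all naive ones (0.51, SE 0.22, exact rank sum p = 0.041). Fgf2, another growth factor, ranged from 2.86 to 13.7 FPKM in expert and from 0 to 8.43 FPKM in naive (1.05, SE 0.49). All 10 tested genes of the perisynaptic matrix had higher means (median 0.27, and 0.04 without both), led by Vcan, the proteoglycan versican, with medians of 7.92 and 5.24 FPKM (0.54, SE 0.21). Notch1, the receptor, stood at 0.59 (SE 0.28), with 17 of 18 genes of the Notch and hedgehog pathways higher (median 0.17). That median was 0.04 without expert 3 and -0.01, with 9 of 18 higher, without expert 3 and expert 6.

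Neuron markers and ribosomal protein genes had mostly lower means, by amounts that depended on single libraries. Of 24 tested neuron markers 22 had lower means (median -0.25), with 0 at an unadjusted p under 0.05. Over all genes 54.4% had higher means. Neurod2, a transcription factor of cortical excitatory neurons, ranged from 2.47 to 7.68 FPKM in expert (median 4.24) and from 4.56 to 9.19 FPKM in naive (median 6.44), at -0.47 (SE 0.24), and the interneuron peptide Sst had medians of 11.9 and 17.3 FPKM (-0.38, SE 0.22). The mean of the list was 3.20 to 4.81 in naive and 3.40 to 4.81 in expert libraries. Of 74 ribosomal protein genes 67 were lower (median -0.17, 1 at an unadjusted limma p under 0.05, Rps15a at -0.46, SE 0.21), and under quantile normalization 27 were higher, with a median of -0.05. Both medians took the other sign among the 4 libraries with a silent-gene mean of at least 4 FPKM, at 0.15 for neuron markers and 0.11 for ribosomal proteins, and stood at -0.50 and -0.29 in the other 8. Without expert 4 the neuron median was -0.11 with 10 of 24 higher, and the ribosomal median 0.02 with 39 of 74 higher. Leaving out expert 3 and expert 6 gave -0.10 and -0.23. With the neuron marker mean as a covariate the ribosomal median was 0.02.

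**Figure D4:**
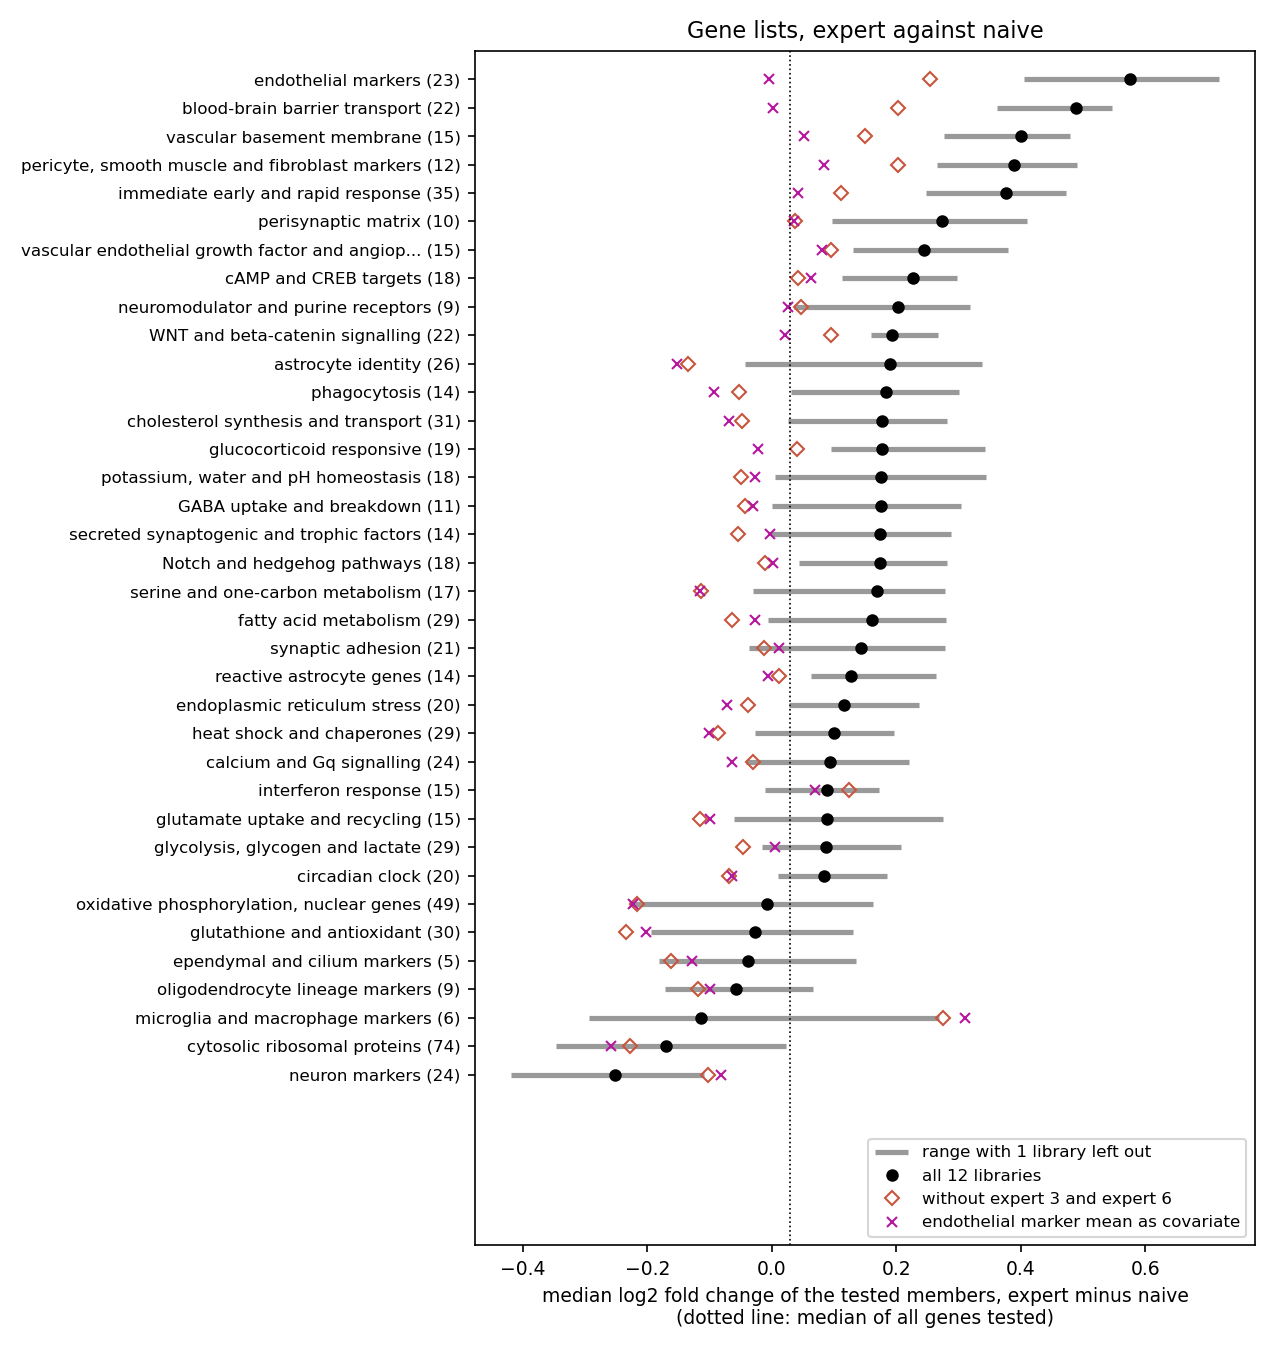
Median log2 fold change (expert minus naive, x axis) of the tested members of each list with at least 5 tested members (number in parentheses), with all 12 libraries (dots), the range when 1 library is left out (bars), without expert 3 and expert 6 (diamonds) and with the mean of the endothelial markers as a covariate (crosses), against the median of all genes at 0.03 (dotted line). Endothelial markers, barrier transport, basement membrane, mural markers and rapid response genes stay right of the dotted line in every fit that leaves out 1 library. Their lowest medians run from 0.25 (rapid response) to 0.41 (endothelial). Other lists stay right of it too, at lowest medians from 0.16 (WNT signalling) down to 0.031 (phagocytosis). Among these are perisynaptic matrix (0.097) and reactive astrocyte genes (0.063). Astrocyte identity goes from 0.19 to -0.13 without both expert libraries. The covariate sets the endothelial median near 0 by construction.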

How the data were processed

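RNA of motor cortex astrocytes was made into stranded libraries with a SMARTer total RNA kit and sequenced on an Illumina HiSeq 2000, per the labels' protocols. Reads were processed with TopHat and Cufflinks on mouse build mm9, per the submitters' processing notes, with no versions, options or annotation in the sources used here. What the authors deposited is a table of FPKM per gene and library, although its title speaks of normalized counts, and the unit follows from Cufflinks and from the values, which are not whole. FPKM depends on the annotated transcript length. A transcript that takes a large share of a library can lower the others, unless libraries were scaled further, which is not known here. Whether Bc1 lowered other values was not tested. The median FPKM of the tested genes was 10.95 in naive 4, where Bc1 held 54.8% of the sum, and 9.16 in naive 6, where it held 6.01%. The silent-gene mean differed between these libraries too, at 1.77 FPKM in naive 4 and 6.81 FPKM in naive 6. Expert 3 had the highest median, 11.3 FPKM, at a Bc1 share of 18.4%. Read totals are not part of the values, so depth per library was described by genes at 0. Of 23951 entries, 27 with names turned into dates were dropped, and no column was left unmapped (0).

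Values were transformed to log2(FPKM + 1), so fold changes of low genes are understated, and tested with limma 3.58.1 in R 4.3.3 (mean-variance trend, two-sided, Benjamini-Hochberg over all 9427 genes, threshold 0.05), with 6 libraries in each group and no covariate. The SE is that of the fit. Alternatives covered the pseudocount, filter, scaling (trimmed mean of M values or quantiles), covariates, block, weights, rank sum test and libraries left out. A further alternative added the novice libraries to the fit. The fit was tested on simulated data, drawn as independent normal values for each gene. Named were the 12 genes of smallest p in each direction, up to 6 per direction without overlap, up to 4 of smallest p from each of 37 lists, and always Aldh1l1, Aqp4, Gfap, Gja1, Slc1a2 and Slc1a3. Predicted and small RNA genes were passed over. Egfl7, Cldn5, Eltd1, Abcb1a, Slc40a1, Epas1, Vegfa, Lef1, Pdgfrb, Klf2, Fos, Jun, Arc and Akap12 were named after their values were seen. The members and lists were chosen with earlier results of these data known.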

Additional observations from a re-analysis of the deposited data

Results flagged for a closer look

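In each group of 6, the highest or lowest library was compared with its nearest neighbour, and a gap, as a share of the whole range, above the critical value of Dixon's test marked a library as far from the others. Over 87 genes and 37 lists, 248 groups were examined and 11 were marked. Chance marks about 1 in 20 groups, so about this many marks arise by chance.

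Among the vascular genes, Cdh5 stood at 24.2 FPKM in naive 4, above the other naive libraries, Tek at 9.55 FPKM in naive 2 and Egfl7, a factor secreted by endothelium, at 7.79 FPKM in naive 6, both below the others. Per1 was 14.6 FPKM in naive 4, above the other naive libraries. Arc was 27.6 FPKM in expert 2 and below 10 FPKM in the other expert libraries.

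Among genes of other functions, Txnip, an inhibitor of thioredoxin, was 5.18 FPKM and Prpf31 3.05 FPKM in naive 2, and Nagk 5.06 FPKM in naive 5, each the lowest of its group. Pemt was 13.3 FPKM in expert 5, the highest of its group. The mean log2(FPKM + 1) of the 6 tested microglia and macrophage markers was 2.14 in expert 3, and that of the 3 tested blood cell markers was 2.75 in naive 6, each below the rest of its group.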

How the results depend on the processing

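FPKM values carry no read totals, so counting error could not be set beside them. With 6 libraries a group, the test on simulated independent genes missed 63 of 100 changed by 2-fold. With 0 genes past the threshold in limma and in the rank sum test, 3 fits within classes of libraries gave calls, all of small RNA genes: 1 among libraries with a silent-gene mean under 2 FPKM, 1 among those of 2 FPKM or more, and 8 in the 2 against 2 libraries of 4 FPKM or more. The other settings tried gave 0.

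The number of genes at an unadjusted p under 0.05 (246) was 515 with a filter of 1 FPKM, 31 with one of 20 FPKM, 628 with none, 647 with the silent-gene mean as a covariate, 698 with library quality weights, 124 without expert 3 and expert 6, 150 among libraries with a silent-gene mean of 2 FPKM or more, 498 among those under 4 FPKM and 431 among those of 4 FPKM or more. With marker means as covariates it was 134 (endothelial) and 452 (neuron). With 1 library left out it ran from 137 (without expert 6) to 367 (without expert 4). The cut at 4 FPKM and both marker covariates were chosen after seeing the data. Of the 182 genes higher at p under 0.05, 31 remained without expert 3 and expert 6 and 17 with the endothelial covariate. The cause of these shifts was not tested.

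No pairing by replicate number was seen in the values: deviations of same-numbered libraries correlated at -0.44 to 0.42, and none correlated best with its own number. These correlations cannot exclude something shared by libraries of the same number. With the replicate number as a block, 0 genes passed and 193 had an unadjusted p under 0.05, 63.7% of them higher where 74.0% were without the block.

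Of the 87 genes named, 12 took the other sign under at least 1 setting, the astrocyte genes most often. The silent-gene covariate gave log2 fold changes of -0.033 for Slc1a2, -0.047 for Slc1a3, -0.064 for Gfap, -0.025 for Aqp4 and -0.019 for Aldh1l1, and quality weights -0.099, -0.14, -0.10, -0.089 and -0.12 for the same genes. Without expert 3 and expert 6 they stood at -0.017, -0.092, -0.13, -0.096 and -0.068, with -0.063 for Gja1 and -0.047 for Vegfa. With 1 library left out, the ranges were -0.022 to 0.40 for Slc1a2, -0.020 to 0.37 for Slc1a3, -0.076 to 0.29 for Gfap, -0.046 to 0.32 for Aqp4, -0.094 to 0.35 for Aldh1l1 and -0.52 to 0.20 for Arc. A silent-gene mean under 2 FPKM gave -0.048 for Slc1a2, -0.031 for Slc1a3 and -0.079 for Aldh1l1, one of 2 FPKM or more -0.092 for Gfap, -0.0078 for Aqp4 and 0.0097 for Arc, one under 4 FPKM -0.0022 for Aldh1l1, and one of 4 FPKM or more -0.13 for Slc2a1, -0.027 for Lef1 and 1.16 for Arc. The endothelial covariate gave -0.17 for Slc2a1, -0.049 for Vegfa, -0.037 for Fos, 0.046 for Arc, -0.00063 for Slc1a2, -0.074 for Slc1a3, -0.032 for Aqp4, -0.11 for Aldh1l1, -0.097 for Gja1 and -0.0037 for Eltd1, and the neuron covariate 0.19 for Arc.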

Other observations

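The metabolic lists other than ribosomal proteins had medians from -0.01 to 0.18. Over all genes tested, 54.4% had higher means. Of 49 nuclear genes of oxidative phosphorylation 24 had higher means in expert and 25 lower (median log2 fold change -0.01), and of 29 genes of glycolysis, glycogen and lactate 19 were higher (median 0.09). These medians were -0.22 and -0.05 without expert 3 and expert 6. Cholesterol synthesis and transport had 26 of 31 higher (median 0.18), which became -0.05 without expert 3 and expert 6, and fatty acid metabolism 24 of 29 (median 0.16), which became -0.06. Acsl5, which activates long-chain fatty acids, was the 1 gene of the fatty acid list with an unadjusted p under 0.05, at medians of 5.30 FPKM in expert and 7.48 FPKM in naive (log2 fold change -0.58, SE 0.24). In the glutathione and antioxidant list (13 of 30 higher, median -0.03), Txnip had medians of 18.6 FPKM in expert and 12.5 FPKM in naive, with 5 expert libraries above all naive ones, and the glutathione reductase Gsr of 5.81 and 7.47 FPKM.

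Of 15 interferon responsive genes 11 were higher (median 0.09), among them Ifi27, an interferon-induced mitochondrial protein, with medians of 22.3 FPKM in expert and 12.5 FPKM in naive. Of 14 reactive astrocyte genes 9 were higher (median 0.13), and over all genes 54.4% were. That list held Srgn at 0.92 and, lower, Serpina3n, a secreted protease inhibitor, with medians of 5.04 and 7.38 FPKM (-0.53, SE 0.24). Circadian clock genes stood higher in 16 of 20 (median 0.08), and in 7 of 20 without expert 3 and expert 6 (median -0.07). None of these genes passed the adjusted threshold (limma).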
